A study of Drosophila melanogaster with 9 samples.

Results

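Genes that break down juvenile hormone or answer to it were followed over the day in fly heads. The set was chosen by gene symbol and holds 7 genes, Jhe, Jheh1, Jheh2, Jheh3, Met, Kr-h1 and to (takeout). A probe set named 4 of them here, Jhe (1637833_at), Jheh2 (1627773_a_at), Met (1630521_at) and Kr-h1 (1631481_a_at), out of 11982 genes named. Jheh1, Jheh3 and to were not analysed here. All 4 probe sets were among the 12105 tested, those that reached a level of 5 on at least 2 arrays. Jhe reached 5 on 5 arrays and the other 3 genes did so on all 9.

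The flies were Drosophila melanogaster, labelled as the 5073 strain, and total RNA of their heads was measured on Affymetrix arrays at 6 zeitgeber times (ZT, hours after lights-on). ZT3 had 3 arrays and ZT15 had 2, whereas ZT7, ZT11, ZT19 and ZT23 had 1 array apiece. The labels give no genotype, sex, age, light schedule or number of flies per array, no control strain was used here, and whether replicate arrays came from separate flies is not stated, so p-values measure only the spread between arrays. Levels were taken to be on the authors' log2 scale, on which a difference of 1 is a doubling. That scale was inferred from added controls and the range of values, and every fold depends on it.

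Juvenile hormone is a lipid hormone made in the corpora allata, glands near the foregut, where jhamt encodes the methyltransferase of the last steps. It binds the receptor proteins of Met and its paralog gce, which act with the coactivator of tai to switch on Kr-h1, a zinc finger factor. Breakdown runs through an esterase, encoded by Jhe, and through epoxide hydrolases, among them that of Jheh2. The takeout family encodes secreted proteins related to the juvenile hormone binding proteins of moths, and in adult flies the hormone is known for its part in egg maturation and mating behaviour.

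Of the 4 genes, Jhe varied most with the time of day. It was high in the morning and low from ZT11 to ZT19, a swing of 5.31-fold between trough and peak in the 24 h curve described below. In the same fit Jheh2 moved by 1.38-fold, Kr-h1 by 1.33-fold and Met by 1.19-fold. Jhe was the single member that passed a test, and it passed when 2 arrays that stood apart were given a level of their own, not in the fit without that term.

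Those 2 arrays, ZT3 replicate 1 and ZT15 replicate 2, were singled out from their own values. The median of 12 testis markers was 4.09 and 4.20 there and 8.98 to 11.1 on the other 7 arrays, and that of the 11 accessory gland markers measured was 3.44 and 3.21 against 9.89 to 12.0. Within those 7 arrays both medians were lowest at ZT3. ZT3 replicates 2 and 3 had 9.02 and 8.98 for testis, against 10.46 to 11.08 on the rest. For accessory gland they had 9.96 and 9.89, against 10.78 to 11.97. The part of these differences in the Jhe values was not tested. Photoreceptor markers stood at medians of 13.3 to 13.9 on all 9 arrays, with all 7 measured at 5 or above, and the 4 neuronal markers at 9.15 to 10.4, so markers of the labelled tissue were present on every array. Fat body markers, 9 in all, had medians of 13.9 to 14.5, and the median level of all probe sets lay between 6.05 and 6.65. Testis and accessory gland are not part of the labelled tissue, and where their transcripts came from was not tested. For cells of the head, less RNA per cell and fewer cells of a type cannot be told apart in whole heads.

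The esterase gene Jhe had levels of 6.86, 6.24 and 6.46 on the 3 ZT3 arrays, 5.84 at ZT7, 4.52 at ZT11, 4.09 and 4.55 at ZT15, 4.21 at ZT19 and 5.08 at ZT23. The 5 arrays of ZT23, ZT3 and ZT7 all lay above the 4 arrays of ZT11, ZT15 and ZT19, with 5.08 the lowest of the first and 4.55 the highest of the second. This split of the day was chosen after the values were seen, and 0.851% of all tested probe sets show it. By mean level the times ran ZT3, ZT7, ZT23, ZT11, ZT15 and ZT19. The steps from ZT3 to ZT7 (0.68) and from ZT7 to ZT23 (0.76) were larger than the widest range between replicates (0.62, at ZT3), whereas those from ZT23 to ZT11 (0.56), ZT11 to ZT15 (0.20) and ZT15 to ZT19 (0.11) were not. The low levels from ZT11 to ZT19 were all under the filter level of 5, so the fold of Jhe rests on dim values.

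**Figure D1:**
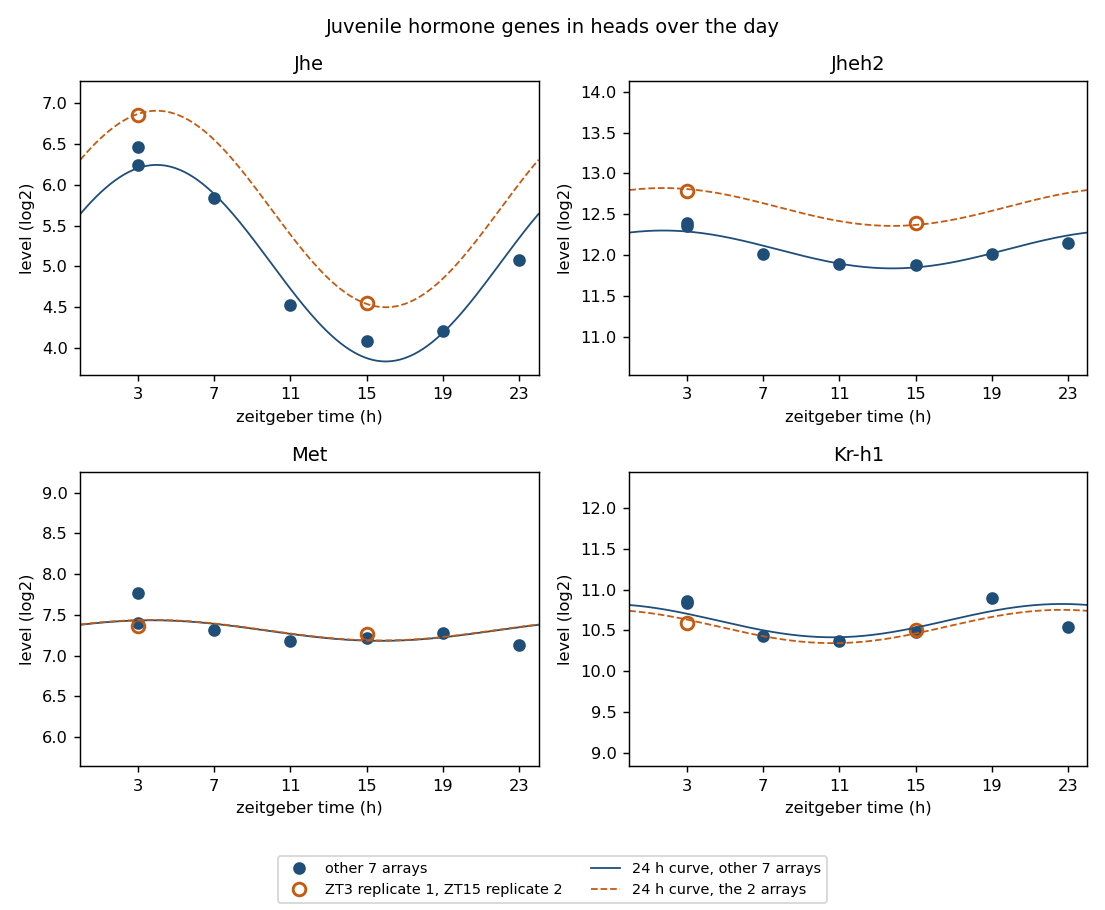
Levels of Jhe, Jheh2, Met and Kr-h1 (log2, y axis, the same span of 3.6 in each panel) against zeitgeber time in hours (x axis) on all 9 arrays. Filled points are 7 arrays, open points are ZT3 replicate 1 and ZT15 replicate 2, and the lines are the 24 h curve fitted with a level of their own for these 2 arrays; Jhe falls from 6.24 or more at ZT3 to 4.55 or less at ZT15, and the other genes move far less.

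The replicated times gave mean levels (± SD) for Jhe of 6.52 ± 0.31 over the 3 arrays at ZT3 and 4.32 ± 0.33 over the 2 arrays at ZT15. The groups did not overlap, and the level was lower at ZT15 by 2.20 on the log2 scale (4.61-fold; 95% interval of the difference -2.93 to -1.48, SE 0.27). The difference ranked 9 of 12105 probe sets by p in limma, with an unadjusted p of 7.58e-04 and an adjusted p of 1.00, so it was not called. No probe set was: percent called was 0, with 284 probe sets (2.35%) at an unadjusted p under 0.05. With the 2 arrays as a block, the difference was -2.28 (SE 0.12), limma's adjusted p was 0.113, and again 0% of probe sets were called.

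The Jhe difference was close in size inside and outside the pair of arrays that stood apart. Between ZT15 replicate 2 and ZT3 replicate 1 it was -2.31, and between ZT15 replicate 1 and the mean of ZT3 replicates 2 and 3 it was -2.27. Leaving out any 1 of the 5 arrays gave -1.97 to -2.43. With both arrays of the pair left out, the Jhe difference was the same -2.27, from 1 ZT15 array against 2 ZT3 arrays. The residual spread in that fit comes from ZT3 replicates 2 and 3 alone.

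Fitted with a 24 h cosine over all 9 arrays, Jhe had an amplitude of 1.18 (SE 0.16) and a peak at ZT4.0 (SE 0.67 h), with an adjusted p of 0.231 in limma, where 0.033% of probe sets were called. With the 2 arrays as a block, the amplitude was 1.20 (SE 0.09), the peak again at ZT4.0 (SE 0.36 h) and limma's adjusted p 0.0112. That made Jhe 1 of 30 probe sets called, 0.248% of those tested. Over the 7 other arrays alone the amplitude was 1.21 (SE 0.11), with a limma adjusted p of 0.0338 and 0.562% of probe sets called.

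This call was close to its threshold. With the block kept, leaving out each of the 9 arrays in turn gave amplitudes of 1.16 to 1.27 and peaks from ZT3.6 to ZT4.4, and adjusted p from 0.02 to 0.0776. The call was lost without ZT3 replicate 2 (0.0776), ZT3 replicate 3 (0.0539), ZT15 replicate 1 (0.0589) or the ZT19 array (0.0588), and with quantile normalization (0.0542).

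Transcripts of digestive enzymes also differed between arrays, and their summed level was lower at ZT3 than at 5 of the 6 other arrays. The median of the 14 gut markers measured, of 19 listed, was 5.83, 5.22 and 4.88 at ZT3, 4.13 in ZT15 replicate 2 and 9.09 to 10.6 in the other 5 arrays, and their summed level was 10.9, 13.6 and 13.5 at ZT3, 8.44 in ZT15 replicate 2 and 15.1 to 16.1 in the rest (log2). At ZT3 6 to 10 of the 14 reached 5, in ZT15 replicate 2 it was 6, and in the other 5 arrays all 14. Jhe was high and gut markers low on the 3 ZT3 arrays, and Jhe was low and gut markers high at ZT11, ZT19 and in ZT15 replicate 1. Both were low in ZT15 replicate 2, and at ZT7 Jhe stood at 5.84 with gut markers high. Their part in the Jhe values was not tested beyond the covariate fits that follow. With the gut median as a covariate beside the block, a fit added after the data were seen, Jhe reached an amplitude of 1.13 (SE 0.09, adjusted p = 0.0221 in limma). Its ZT15 minus ZT3 difference was -2.29 (SE 0.15, limma's adjusted p = 0.0137), with 317 probe sets called. That contrast has fewer residual degrees of freedom (df) than the contrast with the block alone, which has 2. With the covariate but no block, the amplitude was 1.05 (adjusted p = 0.114).

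The epoxide hydrolase gene Jheh2 had levels of 12.8, 12.4 and 12.4 at ZT3, 12.0 at ZT7, 11.9 at ZT11, 11.9 and 12.4 at ZT15, 12.0 at ZT19 and 12.2 at ZT23. Its highest values were the ZT3 arrays and ZT15 replicate 2, and the ZT3 and ZT15 groups overlapped at 12.4. Both arrays that stood apart lay above or level with all others, by 0.49 on average. Jheh2 had means (± SD) of 12.51 ± 0.24 over the ZT3 arrays and 12.14 ± 0.36 over the ZT15 arrays, which differed by -0.37 (SE 0.25; interval -1.04 to 0.30; limma's adjusted p = 1.00). Within the pair it was -0.39 and within the other arrays -0.49.

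With the block, the Jheh2 difference was -0.45 (SE 0.11; interval -0.74 to -0.16), with an unadjusted p of 0.0131 and an adjusted p of 0.329 in limma; 12% of all probe sets had an unadjusted p under 0.05 in that fit. The 24 h amplitude was 0.23 (SE 0.05) with a peak at ZT1.8 (SE 1.03 h), an unadjusted p of 0.00536 and an adjusted p of 0.175. No step between neighbouring times in the order of mean levels exceeded the widest range between replicates (0.51). In the genome annotation Jheh2 lies between Jheh1 and Jheh3, and how far its probes also read these neighbours was not tested.

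For the receptor gene Met the levels were 7.36, 7.40 and 7.77 at ZT3, 7.32 at ZT7, 7.18 at ZT11, 7.21 and 7.26 at ZT15, 7.28 at ZT19 and 7.13 at ZT23. ZT3 replicate 3 was the one high value, and the other 8 arrays lay within 7.13 to 7.40. Met had means (± SD) of 7.51 ± 0.22 at ZT3 and 7.24 ± 0.03 at ZT15, -0.27 apart (SE 0.19; interval -0.78 to 0.23; limma's adjusted p = 1.00). Both ZT15 arrays lay below all 3 ZT3 arrays, and the difference was -0.10 within the pair and -0.37 within the other arrays. The whole span between the mean levels of the 6 times, 0.38, was smaller than the range between the ZT3 replicates, 0.40, and the amplitude with the block was 0.13 (SE 0.08; adjusted p = 0.523 in limma).

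The response gene Kr-h1 read 10.59, 10.84 and 10.86 at ZT3, 10.43 at ZT7, 10.37 at ZT11, 10.49 and 10.51 at ZT15, 10.90 at ZT19 and 10.54 at ZT23. High values were those of ZT3 replicates 2 and 3 and of the single ZT19 array. Kr-h1 had means (± SD) of 10.76 ± 0.15 at ZT3 and 10.50 ± 0.02 at ZT15, -0.26 apart (SE 0.16; interval -0.70 to 0.17; limma's adjusted p = 1.00). Here too the groups did not overlap, with differences of -0.08 within the pair and -0.36 within the other arrays. Its amplitude with the block was 0.20 (SE 0.10), with the fitted maximum at ZT22.7 (SE 1.46 h) and a limma adjusted p of 0.394, and no step between neighbouring times exceeded the widest range between replicates (0.27).

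Across the 4 genes, 3 had both ZT15 arrays below all ZT3 arrays, where 9.62% of all tested probe sets did, and all 4 were lower at ZT15 within each set of arrays, where 34.4% of probe sets were. Control RNAs added to every sample also read lower at ZT15 among the other arrays, with ZT15 minus ZT3 differences of -0.83 for bioB, -0.74 for bioC, -0.62 for bioD and -0.45 for cre, whereas within the pair the same differences were -0.09, -0.01, 0.02 and 0.00. Beside these stand -0.49 for Jheh2, -0.37 for Met and -0.36 for Kr-h1 among the other arrays, and -2.27 for Jhe. On those arrays bioB read 9.04 and 8.21 at ZT3 and 7.81 at ZT7. It read 8.06 at ZT11, 7.79 at ZT15, 7.43 at ZT19 and 7.53 at ZT23. The controls thus also varied over the times of the 24 h fits and between ZT3 replicates. The part of these shifts in the members' values was not tested. The members' median difference was -0.32, against -0.04 over all tested probe sets. These 4 genes share arrays and were chosen with earlier results known, so the counts describe them and test nothing. Jhe and Jheh2 correlated at r = 0.748 over the 9 arrays and 0.886 once the mean of each set of arrays was taken out. Over the 9 arrays r was 0.282 for Jhe with Kr-h1, 0.654 for Jhe with Met and 0.612 for Met with Kr-h1; all these points share arrays and normalization.

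The neighbouring esterase gene Jhedup, a paralog that lies next to Jhe in the genome annotation, did not share the Jhe pattern. It read 12.49 and 12.68 in the pair of arrays that stood apart, and 5.38, 5.46, 4.44, 5.09, 5.85, 4.54 and 3.66 on the other arrays in order of time. Its mean was 203-fold higher in the pair, which holds 1 array of each replicated time. Jhe stood at 4.55 on the array where Jhedup stood at 12.68.

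**Figure D2:**
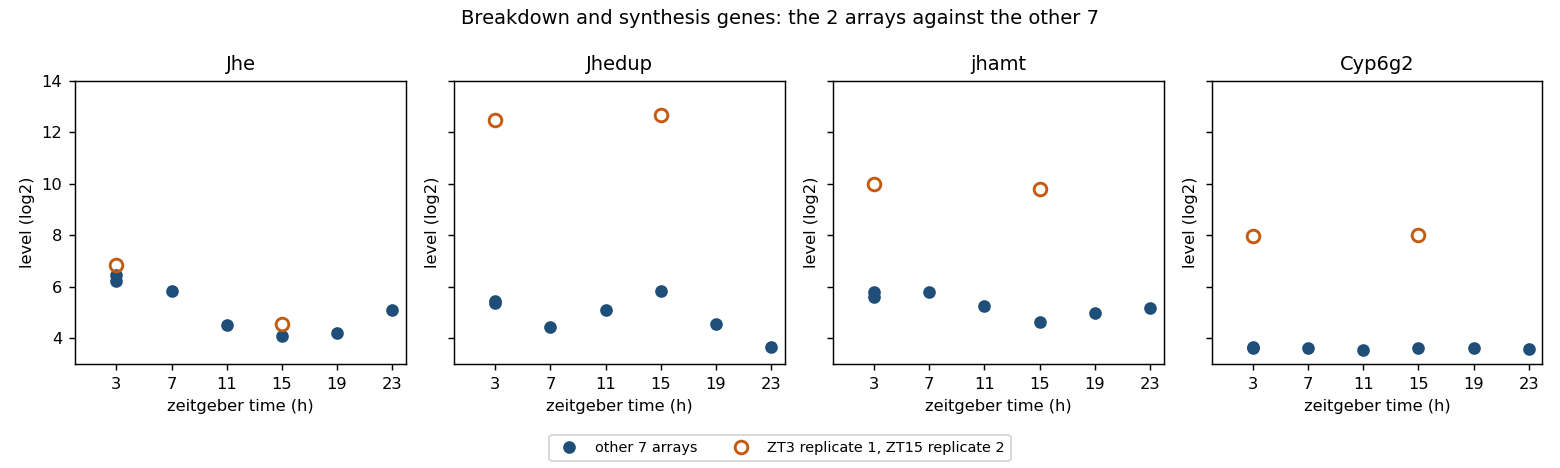
Levels (log2, y axis) of the breakdown genes Jhe and Jhedup and the synthesis genes jhamt and Cyp6g2 against zeitgeber time in hours (x axis) on all 9 arrays. Open points are ZT3 replicate 1 and ZT15 replicate 2; Jhedup, jhamt and Cyp6g2 are far higher there (at 7.98 or more) than on the other 7 arrays (at 5.85 or less), while Jhe is high at ZT3 and low at ZT15 in both sets.

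Of 13 genes listed for synthesis of the hormone and its control, 7 were measured and tested, and 0 passed for ZT15 against ZT3 or for the rhythm, with or without the block. jhamt read 10.01 and 9.81 in the pair and 4.62 to 5.81 on the other 7 arrays, a 24.2-fold gap between the means. Within those 7 arrays it was 5.59 and 5.81 at ZT3, 5.81 at ZT7 and 4.62 at ZT15, and with the block its amplitude was 0.44 (SE 0.11) at ZT5.5, with an adjusted p of 0.214 in limma. Cyp6g2, a cytochrome P450 gene named here after its values were seen, showed the same split, with 7.98 and 8.03 against 3.55 to 3.67. It passed the filter through the pair alone, since its 7 other values lie under the filter level of 5.

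The remaining synthesis genes differed less between the sets of arrays. Idi, for isopentenyl diphosphate isomerase, was 1.59-fold higher in the pair, AstC, which encodes the neuropeptide allatostatin C, 1.47-fold and Hmgs, for the HMG-CoA synthase of the mevalonate pathway, 1.31-fold. In all, 6 of the 7, Cyp6g2 among them, had both arrays of the pair above all others, as did 38.6% of all tested probe sets; Cyp6g2 had to, by the filter. AstC had an amplitude of 0.27 (SE 0.09) at ZT5.2 with the block, with an adjusted p of 0.286 in limma.

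Among the receptor genes and their partners, 5 of 6 listed were tested and 0 passed in either comparison. gce, the paralog of Met, differed by -0.54 (SE 0.14) between ZT15 and ZT3 with the block, with an unadjusted p of 0.0183 and an adjusted p of 0.348 in limma; its ZT15 arrays read 7.13 and 7.08 and its ZT3 arrays 7.58, 7.54 and 7.83. A second gce probe set differed by -0.41 with the block and read 3.41 at ZT19 and 6.04 to 6.96 elsewhere, a dip that the first probe set, at 7.85 there, did not have. The coactivator gene tai differed by -0.40 (adjusted p = 0.501 with the block in limma), by 0.03 within the pair and by -0.72 within the other arrays. ftz-f1, which encodes a nuclear receptor, differed by 0.09 with the block, and its second probe set differed by -0.10.

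Of the 7 response genes listed, 6 were tested and 0 passed. JhI-26, a gene found by its induction by juvenile hormone, had an amplitude of 0.26 (SE 0.07) at ZT2.0 with the block, and mnd, an amino acid transporter gene, 0.24 (SE 0.07) at ZT3.4; limma's adjusted p was 0.257 and 0.266. RNaseZ, listed as JhI-1 and known for processing the ends of tRNAs, had an amplitude of 0.15 (SE 0.06) at ZT21.3 (adjusted p = 0.338). JhI-26 levels were 9.62 to 9.97 at ZT3, 9.82 at ZT7, 9.23 at ZT11, 9.27 and 9.64 at ZT15, 9.35 at ZT19 and 9.91 at ZT23, so that ZT15 replicate 2 overlapped the ZT3 arrays.

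In the takeout family 21 of 25 listed genes were measured, 19 were tested and 0 passed with or without the block. With the block the smallest p for the rhythm was that of CG7079, with 10.45, 9.96 and 9.93 at ZT3, 9.53 at ZT7, 9.07 at ZT11, 8.98 and 9.68 at ZT15, 8.99 at ZT19 and 9.58 at ZT23. Both ZT15 arrays lay below all 3 ZT3 arrays, and with the block the amplitude was 0.47 (SE 0.06) with a peak at ZT3.1 (SE 0.63 h) and an adjusted p of 0.0604 in limma. CG31207 had an amplitude of 0.33 (SE 0.05) at ZT2.8 and CG31189 one of 0.47 (SE 0.07) at ZT2.8, with adjusted p of 0.0936 and 0.104. Over the 7 other arrays alone CG31189 passed, with a limma adjusted p of 0.041, and CG31207 (0.0614) and CG7079 (0.0623) did not. The roles of these genes are not known well enough to state.

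**Figure D3:**
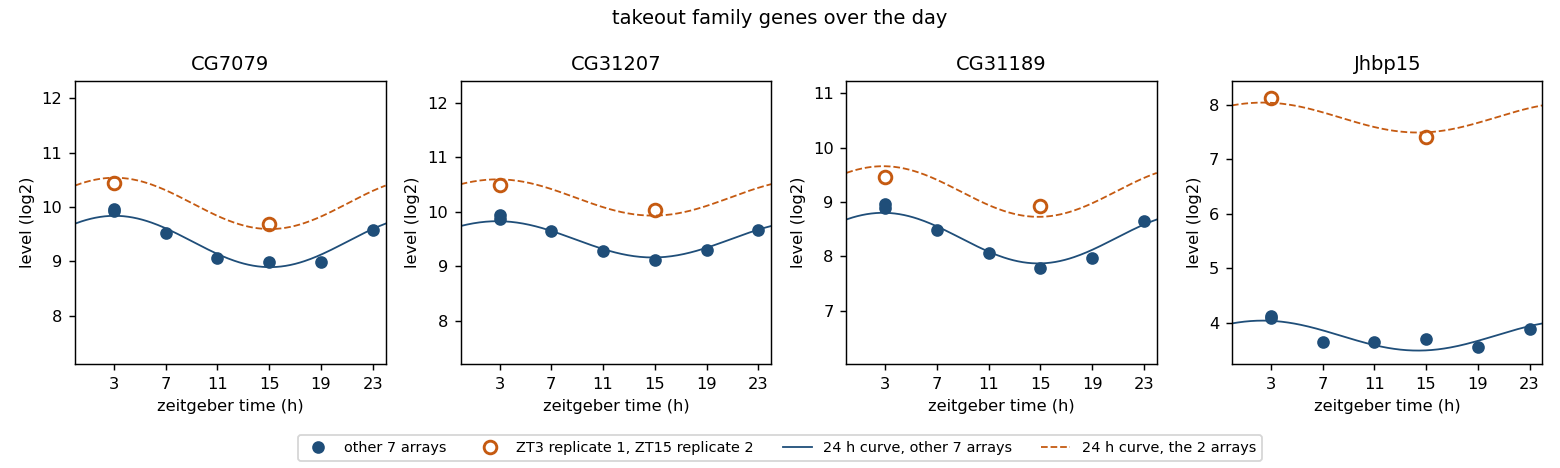
Levels (log2, y axis, the same span of 5.2 in each panel) of the 4 takeout family genes of smallest p for a rhythm against zeitgeber time in hours (x axis) on all 9 arrays, with symbols and curves as in the plot of Jhe, Jheh2, Met and Kr-h1. CG7079, CG31207 and CG31189 are lowest at ZT15 or level with it and highest at ZT3 in each set of arrays, and Jhbp15 is at 7.41 or more in ZT3 replicate 1 and ZT15 replicate 2 and at 4.11 or less, under the filter level of 5, in the others.

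Jhbp15 read 8.13 and 7.41 in the pair of arrays and 3.55 to 4.11 in the others. It reached the filter level of 5 on that pair alone, so its fold and its rhythm p rest on 7 values under the filter level. Other genes of the family, named after their values were seen, were low in the pair: CG8997 at 3.00 and 3.91 against 6.01 to 11.4, CG7953 at 3.30 and 3.49 against 6.08 to 10.8, and Jhbp5 at 7.28 and 7.13 against 9.33 to 11.8. Within the other 7 arrays CG8997 was 6.34 and 6.01 at ZT3 and 9.94 or more at the other times. Gut, testis and accessory gland markers were also lower at ZT3 among these arrays, and their part in the CG8997 values was not tested. Of the 19 tested genes of the family, 8 had both arrays of the pair above all others and 4 had both below. Jhbp15 is among the 8 and had to be, by the filter. Of all tested probe sets 38.6% and 17.3% did so, and the counts say nothing particular about the family.

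Over all 5 lists, 40 genes were tested and Jhe alone passed for the rhythm with the block, while Jhe and CG31189 passed over the 7 other arrays alone. In the rhythm fit with the block, 11 of the 40 genes had an unadjusted p under 0.05 in limma, as did 16.9% of all tested probe sets. Jhbp15 is among the 11, and its values on the 7 other arrays all lie under the filter level. The median ZT15 minus ZT3 difference was -0.02 for synthesis, -0.37 for breakdown, -0.27 for receptors and partners, -0.23 for response genes and 0.11 for the takeout family, against -0.03 over the 9659 genes tested. With the block the medians were -0.09, -0.45, -0.26, -0.16 and -0.06 in the same order, against -0.07, so that of the takeout family changed sign.

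**Figure D4:**
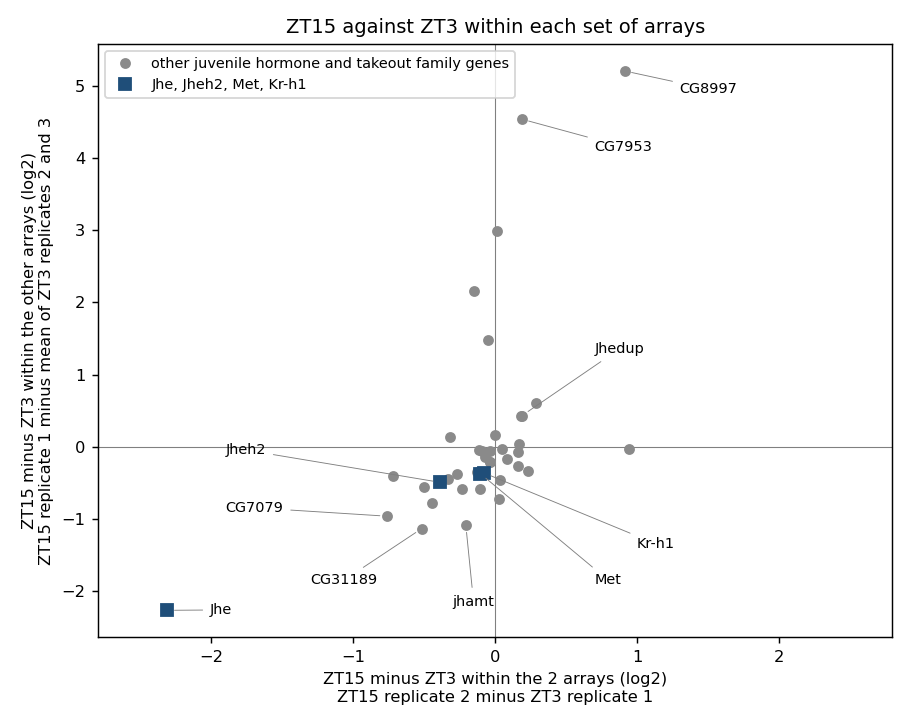
ZT15 minus ZT3 difference (log2) within the 2 arrays that stood apart (x axis) against that within the other arrays (y axis), 1 point per gene, for 40 tested genes of the juvenile hormone and takeout family lists; squares are Jhe, Jheh2, Met and Kr-h1. Jhe lies at -2.31 and -2.27, away from all other genes plotted. CG8997 and CG7953 differ by 5.21 and 4.54 within the other arrays and by 0.91 and 0.19 within the 2 arrays. Their levels on those 2 arrays lie under the filter level of 5.

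The genes whose levels followed Jhe most closely over the 9 arrays were CG9649 (Pearson r = 0.974), the cuticle protein gene Cpr72Ec (0.972) and SPR, which encodes the sex peptide receptor (0.966). With the mean of each set of arrays taken out they were the UDP-glycosyltransferase gene Ugt302C1 (0.978), grnd (0.976), which encodes a receptor of the tumour necrosis factor family, and Ugt35A1 (0.975). Those 6 genes peaked between ZT3.3 and ZT4.4 in the 24 h fit with the block. Cpr72Ec read 13.9, 13.6 and 13.5 at ZT3, 12.7 at ZT7, 12.0 at ZT11, 11.1 and 11.9 at ZT15, 11.6 at ZT19 and 12.7 at ZT23, an amplitude of 1.10 beside 1.20 for Jhe.

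For Jheh2 the closest genes were Idh (r = 0.990), Polr2E (0.984) and CG5196 (0.980) over the 9 arrays, and Boh2 (0.987), Tsp42Ek (0.985) and Idh (0.979) with the set means taken out. For Met they were rst (0.924), CG42747 (0.921) and the ecdysone receptor gene EcR (0.918), and Gorab (0.960), CG5466 (0.947) and CG14882 (0.946). For Kr-h1 they were crm (0.937), Tusp (0.936) and tok (0.935), and PPO1 (0.988), CG17233 (0.976) and Hcs (0.970). Each is the best of 9659 genes over 9 shared arrays and is given as a description.

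Set beside the clock genes in the same fit with the block, Jhe peaked at ZT4.0 (SE 0.36 h), Clk at ZT2.0 (SE 0.18 h) and cry at ZT5.3 (SE 0.35 h), while per peaked at ZT13.7 (SE 0.36 h). The amplitude of Jhe, 1.20 (SE 0.09), stood beside 1.27 (SE 0.05) for Clk and 1.10 (SE 0.09) for cry. Differences between these peak times were not tested.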

How the data were processed

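GCRMA, which corrects background, normalizes arrays together and summarises probes, gave the authors 1 value per probe set, per the submitters' processing notes, with its version not given. The deposited signal values were taken to be powers of GCRMA's log2 values, and their natural log was used as the level. This log ran from 1.67 to 15.9. With log2 concentration of the added controls it rose with a slope of 1.02 ± 0.06 (SD over 9 arrays), or 1.47 if log2 was taken. If log2 were right, a 2-fold difference would read 2.72-fold, with no change in direction. Gene symbols were those of the platform annotation, brought up to date by Entrez identifier: 13647 of 18769 probe sets named 1 gene, and 13544 of these matched. The 183 control probe sets were left out, and a gene was represented by its probe set of highest mean. limma 3.58.1 in R 4.3.3 compared ZT15 with ZT3 (6 group means, residual df of 3) and fitted a 24 h cosine and sine (residual df of 6), two-sided, with Benjamini-Hochberg adjustment over 12105 probe sets and a threshold of 0.05. The block is an indicator for ZT3 replicate 1 and ZT15 replicate 2 in these fits. It lowers the residual df to 2 for the contrast and 5 for the rhythm. The fits were tested on simulated data with independent noise and no shift shared by whole arrays. That test therefore cannot show how the fits behave under shifts such as those of the 2 arrays. The number of arrays limits the precision. Genes, lists and tests were chosen with earlier results of these data known; up to 4 genes of each list were named, those of smallest p for the rhythm with the block. Neighbouring genes were taken from RefSeq's table of assembly Release 6 plus ISO1 MT; neither coordinates nor sequences were used.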

Additional observations from a re-analysis of the deposited data

How the results depend on the processing

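The 201 values of single genes under other settings all kept their direction. For an amplitude, which has no sign, this means a peak within 6 h of that in the fit without the block. Of the values, 188 stayed on the same side of the threshold and 13, all of Jhe, passed it. Not all are separate fits, since the rhythm fit with the block and without either array of the pair equals that without both. Taking log2 of the deposited values only rescales them and leaves p unchanged. For Jhe the ZT15 minus ZT3 difference ran from -2.02 to -2.29 under the other settings, apart from -3.18 if log2 of the deposited values is the true scale, and the amplitude from 1.05 to 1.29 (1.70 on that scale). No member passed for ZT15 against ZT3, except 1 (Jhe) without the 2 arrays that stood apart and 1 with the block and the gut covariate; the counts of probe sets called were then 2190 and 317, against 0. For the rhythm, 1 member (Jhe) passed with the block, without the 2 arrays, with array weights and with the block and gut covariate, against 0, and the probe sets called were 30, 68, 1177 and 49, against 4. That count was 1 when each array was centred on its median, 2 when the gut covariate was used and 0 from 1 mean per time. Leaving out 1 array gave 2 to 11 probe sets and 0 members for the rhythm and 0 of both for ZT15 against ZT3; the rhythm count rose to 11 when ZT15 replicate 2 was left out and fell to 2 when the ZT11, ZT19 or ZT23 array, ZT3 replicate 2 or 3 or ZT15 replicate 1 was. Array weights did not converge fully. The cause of these changes was not tested. With the replicate number of the labels as a replicate block, Jhe differed by -2.23 and 0 probe sets were called. Arrays of the same number deviated from their group means in opposite directions (r = -0.865 and -0.812). With only 2 ZT15 arrays, these r mirror the 2 arrays that stood apart and cannot show whether the numbers mark pairs. The numbers were not taken as pairs. Each member has 1 probe set, so no choice between probe sets arose, and Jhe has no value with a filter level of 7, which it does not reach on 2 arrays. The gut covariate and its combinations were added after the data were seen.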
